A study of Mus musculus with 10 samples.

Results

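Serum-restricted genes are described here: 54 of the 24015 genes in the count tables, whose level was high in all serum libraries of mouse embryonic stem cells and low in all libraries from 2i. The members were chosen by these same values. The level was CPM, a gene's count scaled to 1000000 gene counts of its library and not divided by gene length, so that it compares libraries and not genes. A member had at least 5 CPM in the lowest of the 4 serum libraries, original and returned, and at least 8 times the highest of the 6 libraries from 2i. Of 64 genes past both thresholds, 10 were set aside by symbol (Col4a1, Col4a2, Col5a3, Fgfr3, Nos3, Robo4, Slc16a3, Slc7a7, Sox7 and Spry4). Since the rule used the difference between serum and 2i, that difference is given as a description with no test. What the rule left free was how the members differed between the serum phases, and among the 2i phases, and those differences were tested.

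The cells were embryonic stem cells from the inner cell mass of the blastocyst, grown on gelatin with leukaemia inhibitory factor (LIF). All groups carried a reporter of Wnt/β-catenin signalling, and strain and line are not named. 2i adds inhibitors of GSK3 (3 µM) and of the ERK pathway (1 µM), and the cells were generally split every 48 h. The 10 libraries of total RNA formed 5 groups of 2. In culture order these were original serum, first 2i (5 to 6 passages in the inhibitors), long 2i (over 13 passages), serum return (over 13 passages in 2i and then 6 in serum) and second 2i (2i, then 6 passages in serum, then 4 to 5 in 2i). For second 2i the earlier 2i culture is given as 13 passages, and its descent from the serum return sampled here is not stated. The labels do not say that the 2 libraries of a group came from separate cultures, and the p-values below cover the spread between libraries alone, which may be technical.

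Serum with LIF keeps mouse embryonic stem cells in a mixed state, in which ERK signalling runs and part of the cells approach differentiation. The inhibitors of 2i block ERK signalling and stabilise β-catenin, and cells in 2i are known for a more uniform state with few lineage genes transcribed and with low DNA methylation.

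Gene counts totalled 16809070 to 27766338 per library, and 1 count corresponded to 0.036 to 0.0595 CPM. The 17 listed genes of naive pluripotency were all tested, and their summed level was 7263 to 11060 CPM in every group, so each group carried the markers of its labelled cell type. Rn45s, the precursor of ribosomal RNA, had 2506 and 15410 CPM in the libraries of serum return, against 3111 to 5380 CPM in the others. With Rn45s left out of the totals, an alternative added after the data were seen, 55 genes met the rule, all 54 members among them.

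The members together took 0.00569% to 0.00998% of gene counts in 2i libraries and 0.185% to 0.202% in serum libraries. Their summed level was 1938 ± 120.6 CPM in original serum, 70.5 ± 3.93 in first 2i, 58.4 ± 2.18 in long 2i, 1914 ± 70.5 in serum return, with 97.9 ± 2.68 in second 2i (SD, n = 2 each). The sums of original serum and serum return were alike, in genes that the rule required to be high in both phases. Of the 2i phases the sum was highest in the second. Single members had a mean of 0.124 to 7.94 CPM over the 2i libraries, with a median of 0.908, and 30 of the 54 stood under 1 CPM. In serum the means ran between 6.98 and 176 CPM, with a median of 25.2. The lowest serum library stood 8.14 to 49.5 times above the highest 2i library, with a median ratio of 13.3. In bulk RNA, fewer cells that express a gene and less RNA per cell cannot be told apart.

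**Figure D1:**
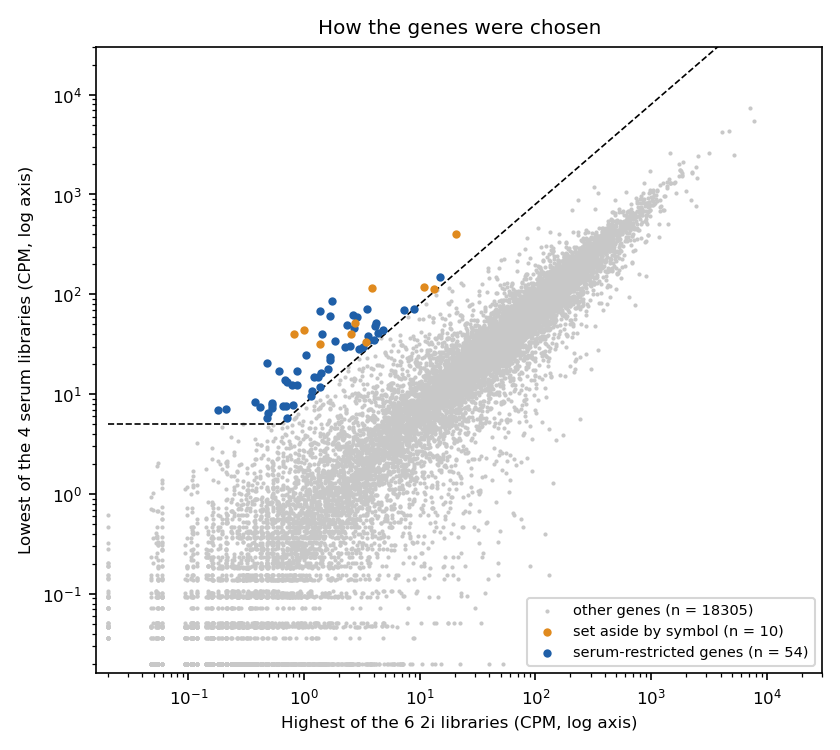
Each point is a gene, placed by its highest level in the 6 2i libraries (x axis, CPM, log scale) and its lowest level in the 4 serum libraries (y axis, CPM, log scale). The dashed line marks 5 CPM and 8 times the 2i level. The 54 members lie above it by choice, beside the 10 genes set aside by symbol, and all other genes lie below it.

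Members lay close to both thresholds. Just inside the floor of 5 CPM were Vash2, a tubulin carboxypeptidase, with a lowest serum library of 5.79 CPM, and Vwa1, a matrix protein, with 5.83 CPM, while Rtp3 at 4.99 and Eif4e3 at 4.91 CPM stood just outside. Just inside the ratio of 8 were Fbxo2, a neuronal ubiquitin ligase subunit, at 8.14 and Vash2 at 8.2, and Hopx at 7.98 and Helz2 at 7.93 stood just outside. With 4 times in place of 8 times the rule took 141 genes, and with 16 times it took 20. Applied to 1 serum phase alone, the rule took 78 genes with serum return and 66 with original serum. The 54 members were in both, another 24 met it with serum return only and 12 with original serum only. A gene that was not high again after the return could by this rule not be a member.

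The counts behind low levels were small. In first 2i 17 members in each library had under 10 counts, in long 2i 26 and 25, and in second 2i 15 in each, so that single members in 2i often rest on few reads. A zero count occurred for 1 member in each library of first and of long 2i, and allows up to 0.141 to 0.178 CPM (3 counts, counting error only). All 54 members passed the filter on low counts for the test, which left 14220 genes, and each could pass through its serum libraries alone.

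**Figure D2:**
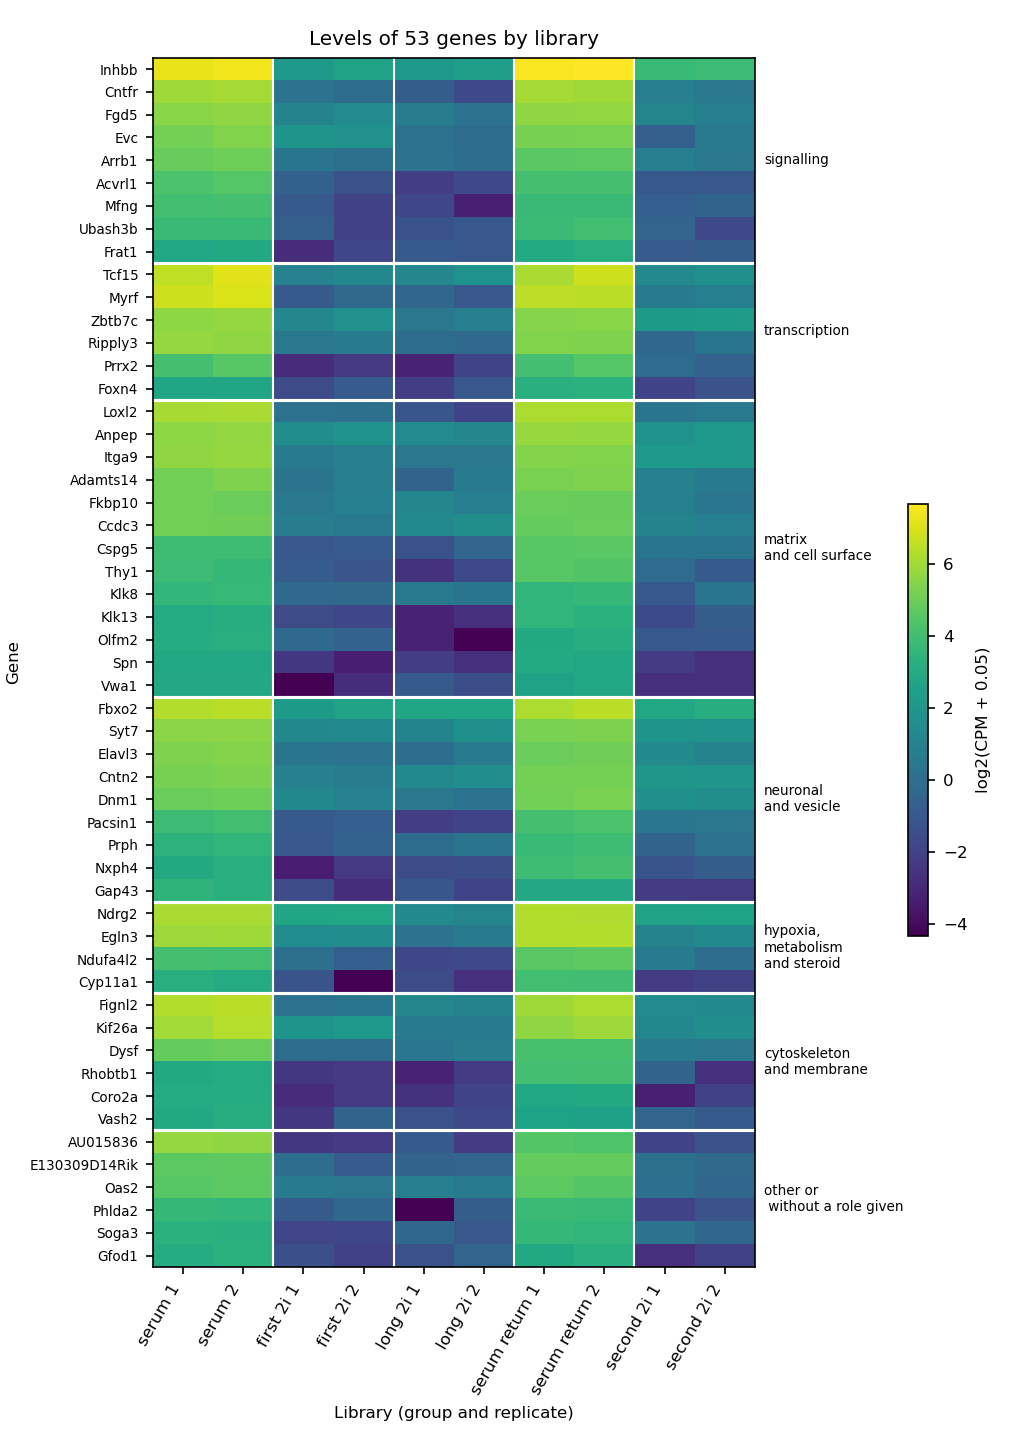
Level of 53 members (rows, by role) in each of the 10 libraries (columns, in culture order), as log2(CPM + 0.05). All 4 serum columns are bright and the 6 columns from 2i dark, as the rule requires. Colours compare libraries within a row, since CPM is not divided by gene length.

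Whether the members came back to their original level was asked with serum return against original serum, by edgeR's quasi-likelihood test across all genes with Benjamini-Hochberg adjustment. Of the 54 members 11 were higher in serum return, 11 were lower and 32 did not pass the adjusted threshold of 0.05. Of all genes tested, 16.5% were called higher and 14.5% lower, and of the members 20.4% in either direction. The fitted log2 fold changes ran between -1.34 and 1.07 with a median of -0.04 (0.02 over all genes). Within a 2-fold change stayed 52 of 54 members (96.3%) and 94.6% of all tested genes. Without replicate 2 of serum or replicate 1 of serum return 6 members in place of 11 were called lower, and DESeq2 called 7. The largest change in each direction was that of Rhobtb1, an atypical small GTPase gene, and of AU015836, a long noncoding RNA.

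**Figure D3:**
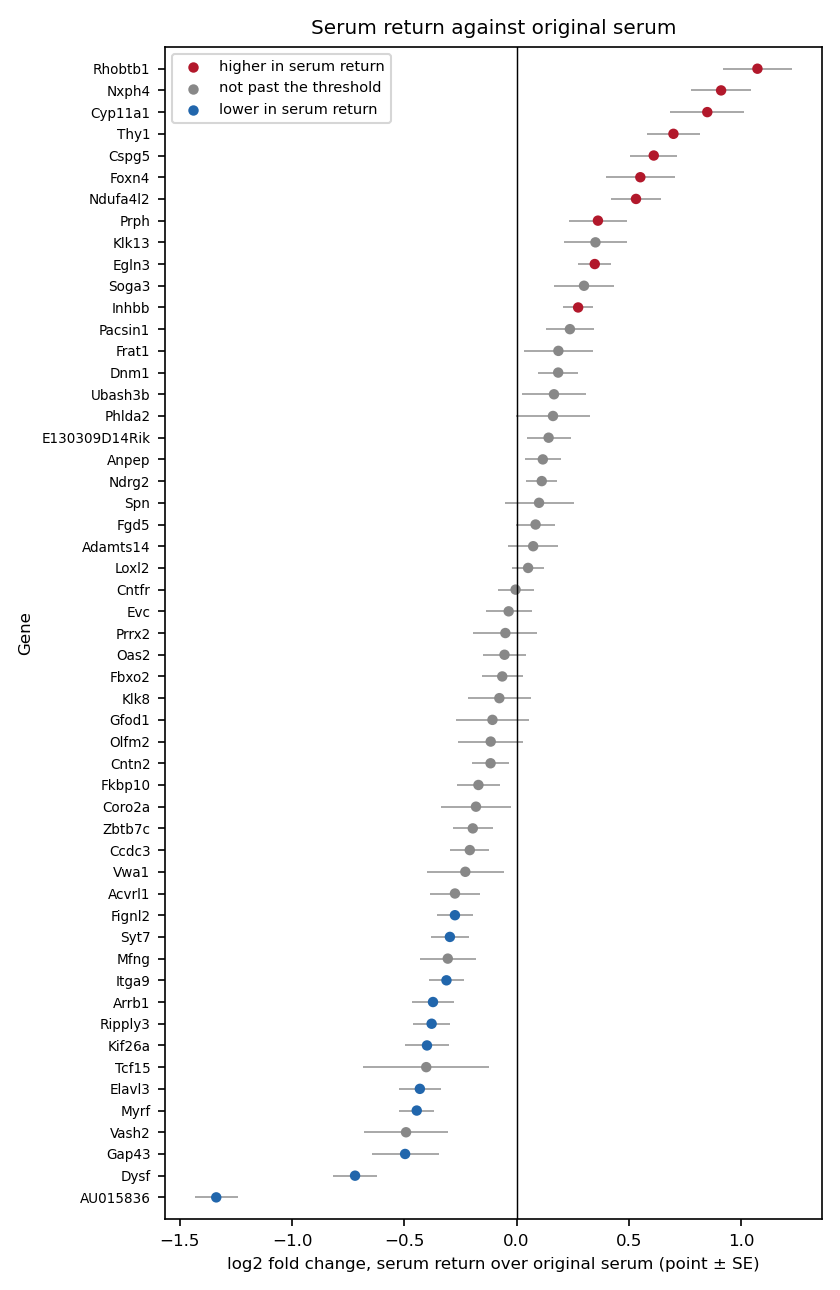
Fitted log2 fold change of serum return over original serum for 53 members (point ± standard error, 5 residual degrees of freedom). Points right of 0 are higher in serum return. The 10 members drawn that were called higher, the 11 called lower and the 32 not past the threshold are coloured apart, and 51 of the 53 lie between -1 and 1.

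In second 2i more members were called higher than lower against either earlier 2i phase. Against first 2i, 17 members were higher in second 2i and 2 were lower (31.5% and 3.7%), where 18.1% and 19.6% of all genes were called. Against long 2i, 22 were higher in second 2i and 4 lower (40.7% and 7.41%), where 28.1% and 28.4% of all genes were called. The median log2 fold change over the members was 0.53 against first 2i and 0.57 against long 2i, and over all genes 0.00 and -0.01. Without replicate 1 of first 2i 11 members in place of 17 were called higher than in first 2i. Without any 1 library of first, long or second 2i 1 member in place of 2 was called lower than in first 2i, and without any 1 library of long or second 2i 2 in place of 4 were called lower than in long 2i. These contrasts share the libraries of second 2i. By mean level, 30 members were highest in second 2i, 14 in long 2i and 10 in first 2i. The same ranking was not made over all genes. In long 2i against first 2i, 7 members were higher and 14 lower (13% and 25.9%), and 30.4% and 30.8% of all genes were called. Without replicate 1 of first 2i or replicate 2 of long 2i, 4 in place of 7 were called higher. The shares are over all 54 members, some of which have too few counts in 2i to be tested there. With only the groups compared in the fit, 33 members could be tested in long against first 2i (3 higher, 12 lower), 40 in second against first 2i (13 higher, 2 lower) and 36 in second against long 2i (19 higher, none lower). DESeq2 called 4 members higher in long against first 2i and 2 lower in second against long 2i. The 2i libraries entered the rule only through their highest value, which caps the level of a member in every 2i phase.

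**Figure D4:**
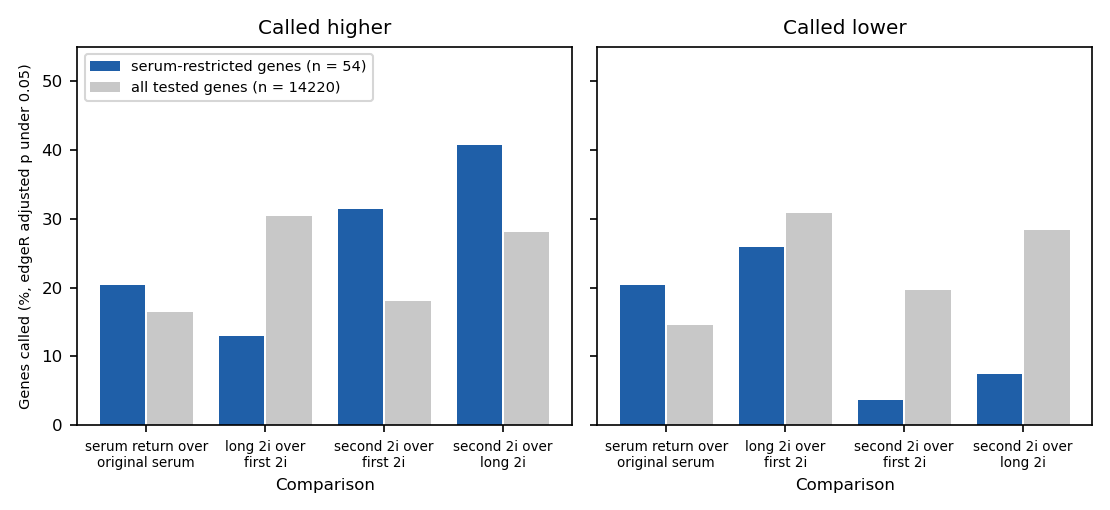
Share of the 54 members (left bar of each pair) and of the 14220 tested genes (right bar) called higher (left panel) and lower (right panel) in each comparison, in percent. In both comparisons of second 2i the members' bar is above the background for genes called higher and below it for genes called lower.

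For signalling, 9 members were grouped after the members were known, as were all roles below. In second 2i 3 of them were higher and none lower than in long 2i, where 28.1% and 28.4% of all genes were called. Against first 2i 2 were higher and 1 lower, where 18.1% and 19.6% of all genes were called. Of the 2, Frat1 was lost in DESeq2 (adjusted p = 0.0633), as well as when either library of second 2i or replicate 1 of first 2i was left out (edgeR adjusted p = 0.081 to 0.243). Inhbb encodes the subunit of activin B, a ligand of the TGF-β family. It had 151 and 166 CPM in serum, 4.42 and 5.83 in first 2i, 4.16 and 4.95 in long 2i, 187 and 201 in serum return, with 13.4 and 14.8 in second 2i. Both libraries of second 2i were above all others from 2i, and both serum phases stood far above them. The level in second 2i was 2.79-fold that of first 2i (log2 1.48 ± 0.13 SE, edgeR adjusted p = 2.79e-08) and 3.12-fold that of long 2i (edgeR adjusted p = 3.39e-09). In serum return Inhbb was 1.21-fold higher than in original serum (edgeR adjusted p = 0.00481). That call was lost without replicate 1 of serum (edgeR adjusted p = 0.0679) or replicate 2 of serum return (edgeR adjusted p = 0.0708).

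Receptor subunits among the signalling members were Cntfr and Acvrl1. Cntfr encodes the ligand-binding subunit of the receptor for ciliary neurotrophic factor, which signals through the same partner chains as LIF. It had 61.1 and 66.1 CPM in serum, 1.13 and 0.883 in first 2i, 0.535 and 0.266 in long 2i, 65.8 and 62.4 in serum return, with 1.68 and 1.31 in second 2i. The serum phases overlapped, while long 2i was below both other 2i phases. Cntfr was 2.54-fold lower in long than in first 2i (edgeR adjusted p = 0.00365, or 0.111 without replicate 2 of long 2i) and 3.8-fold higher in second than in long 2i (edgeR adjusted p = 7.71e-05). Acvrl1 encodes ALK1, a type I receptor of the TGF-β and BMP family that is known from endothelium. It had 19.1 and 22.2 CPM in serum, 0.611 and 0.343 in first 2i, 0.178 and 0.266 in long 2i, 17.2 and 17.4 in serum return, with 0.434 and 0.421 in second 2i. None of the 4 tests of Acvrl1 passed. Serum return against serum passed with only these groups in the fit (edgeR adjusted p = 0.031) or without replicate 1 of serum (edgeR adjusted p = 0.0452), and long against first 2i without replicate 2 of first 2i (edgeR adjusted p = 0.043). Of the 15 tested genes in a list of TGF-β and BMP targets, none of them a member, 2 were higher and 6 lower in serum return than in serum. In second against long 2i 9 were higher and 4 lower. Shares of all genes called higher and lower were 16.5% and 14.5% in the former comparison and 28.1% and 28.4% in the latter.

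Evc, a protein of the primary cilium that acts in Hedgehog signalling, was highest of the 2i phases in the first. Its level was 35.1 and 41 CPM in serum, 3.62 and 3.28 in first 2i, 1.07 and 0.905 in long 2i, 36.9 and 38.2 in serum return, with 0.597 and 1.37 in second 2i. Both first 2i libraries were above the 4 later ones from 2i. Evc was 3.5-fold lower in long than in first 2i (log2 -1.81 ± 0.27 SE, edgeR adjusted p = 6.57e-06) and 3.45-fold lower in second than in first 2i (edgeR adjusted p = 2.28e-05). The other signalling members were Frat1, which binds GSK3, Mfng, a glycosyltransferase acting on Notch receptors, Arrb1, a β-arrestin, Ubash3b, a phosphatase that restrains receptor signalling, and Fgd5, an exchange factor for Cdc42 known from endothelium. Their serum means ran between 7.5 and 48 CPM in original serum. The median log2 fold change of the 9 signalling members in serum return against serum was -0.00.

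As blood and endothelial cells express Acvrl1, Fgd5 and Spn, markers of these cells were summed without members. The 16 listed genes include Robo4 and Nos3, which met the rule and were set aside by symbol. All 16 summed to 98.2 to 148 CPM in 2i libraries and 197 to 213 CPM in serum libraries, and the media did not overlap. The 14 without Robo4 and Nos3 summed to 97.7 to 147 CPM in 2i libraries and 106.5 to 128 CPM in serum libraries. For these 14 the media overlapped. Sox18, Erg, Ptprc, Hbb-y and Emcn stood under 1 CPM in every library, with Hbb-y at 0.

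The 6 transcription factors and cofactors were Tcf15, Myrf, Prrx2, Foxn4, Zbtb7c and Ripply3. In serum return 1 was higher and 2 were lower than in serum, where 16.5% and 14.5% of all genes were called. In second 2i 3 were higher than in first 2i and 3 higher than in long 2i, with none lower. Shares of all genes called higher and lower were 18.1% and 19.6% against first 2i, and 28.1% and 28.4% against long 2i. Without replicate 1 of first 2i 1 in place of 3 was called higher than in first 2i. The call of Foxn4, higher in serum return, was lost in DESeq2 (adjusted p = 0.137) and without 3 libraries in turn (edgeR adjusted p = 0.0613 to 0.0674). Tcf15, a basic helix-loop-helix factor known from somite formation, had 91.2 and 140 CPM in serum, 1.93 and 2.35 in first 2i, 2.26 and 3.51 in long 2i, 70.9 and 107 in serum return, with 2.44 and 3.21 in second 2i. The library of the title series MLE (replicate 2) was above that of the series LEM (replicate 1) in all 5 groups, and the serum phases overlapped. The ratio of replicate 2 to replicate 1 was 1.5 in serum return and 1.54 in serum, against medians over the members of 1.03 and 1.07. Within each title series serum return was below serum. The difference did not pass (log2 -0.40 ± 0.28 SE, edgeR adjusted p = 0.348), but did with no filter on low counts (edgeR adjusted p = 8.23e-07).

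Myrf, a membrane-bound transcription factor required for myelination, had 108 and 125 CPM in serum, 0.47 and 0.834 in first 2i, 0.714 and 0.426 in long 2i, 87.5 and 85.7 in serum return, with 1.41 and 1.74 in second 2i. Both libraries of serum return were below both of serum, and both of second 2i above the 4 earlier ones from 2i. Myrf was 1.36-fold lower in serum return (log2 -0.44 ± 0.08 SE, edgeR adjusted p = 0.00023). In second 2i it was 2.44-fold higher than in first 2i (edgeR adjusted p = 0.00335, or 0.063 without replicate 1 of first 2i) and 2.81-fold higher than in long 2i (edgeR adjusted p = 0.000977). Prrx2 is a homeobox gene of limb and craniofacial mesenchyme, and its values were 17.2 and 22.9 CPM in serum, 0.0941 and 0.147 in first 2i, 0.0595 and 0.213 in long 2i, 17 and 22.3 in serum return, with 0.869 and 0.631 in second 2i. First and long 2i held 5 counts each and second 2i 28, so the rise in second 2i rests on few reads (edgeR adjusted p = 0.00702 against first 2i and 0.00813 against long 2i). It was lost without replicate 1 of first 2i (edgeR adjusted p = 0.067), and also without replicate 1 of second 2i (edgeR adjusted p = 0.0549 against first 2i and 0.0567 against long 2i) or replicate 1 of long 2i (edgeR adjusted p = 0.0707 against long 2i). Ripply3, a corepressor that acts with T-box factors, had 41 and 40.1 CPM in serum return and 53.2 and 51 CPM in serum, a 1.3-fold lower level (edgeR adjusted p = 0.0016).

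The matrix and cell surface group was the largest by number, with 13 members. It held Loxl2, a lysyl oxidase that crosslinks collagen, Adamts14, a procollagen protease, Fkbp10, a prolyl isomerase that folds collagen, the integrin subunit Itga9, Vwa1, the chondroitin sulphate proteoglycan Cspg5, Thy1, Spn (CD43), the aminopeptidase Anpep, the kallikrein proteases Klk8 and Klk13, and the secreted proteins Olfm2 and Ccdc3. Of these, 7 were higher and 2 lower in second than in long 2i, where 28.1% and 28.4% of all genes were called. Without replicate 1 of long 2i, or with only these groups in the fit, 4 were called higher. The 2 called lower were Ccdc3 and Vwa1. Leaving out any 1 library of long or second 2i lost at least 1 of these calls. Without replicate 2 of second 2i both were lost, and Klk8 was newly called lower (log2 -1.54). In DESeq2 and in the fit of only these groups neither Ccdc3 nor Vwa1 was called. In second against first 2i, 2 of the 13 (Itga9 and Cspg5) were higher, none was lower and 11 did not pass. Of all genes, 18.1% were called higher and 19.6% lower in that comparison. In serum return 2 were higher and 1 lower than in serum, where 16.5% and 14.5% of all genes were called. The lower call was lost without replicate 2 of serum. Loxl2 had 67.7 and 70.7 CPM in serum, 1.08 and 1.03 in first 2i, 0.416 and 0.213 in long 2i, 72.6 and 72.5 in serum return, with 1.19 and 1.37 in second 2i. Long 2i was below both other 2i phases, by 3.37-fold against first 2i (log2 -1.75 ± 0.36 SE, edgeR adjusted p = 0.00025), and second 2i was 4.13-fold above long 2i (edgeR adjusted p = 4.28e-05). The serum phases did not differ beyond the threshold (edgeR adjusted p = 0.631).

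Itga9 had 50 and 53.4 CPM in serum, 1.5 and 1.67 in first 2i, 1.31 and 1.33 in long 2i, 42.8 and 41.5 in serum return, with 4.34 and 4.36 in second 2i. Both libraries of second 2i were above the 4 earlier ones from 2i, by 2.77-fold over first 2i (log2 1.47 ± 0.17 SE, edgeR adjusted p = 1.32e-06) and 3.32-fold over long 2i (edgeR adjusted p = 1.13e-07). Cspg5, a proteoglycan of neural tissue, had 15.1 and 15 CPM in serum, 0.423 and 0.49 in first 2i, 0.357 and 0.692 in long 2i, 22.9 and 23.7 in serum return, with 1.2 and 1.21 in second 2i. It was above its earlier level in the second phase of either medium, 1.53-fold in serum return over serum (edgeR adjusted p = 0.000212) and 2.64-fold in second over first 2i (edgeR adjusted p = 0.00279). Against long 2i it was 2.26-fold higher in second 2i (edgeR adjusted p = 0.0059, or 0.103 without replicate 1 of long 2i). The rarest case was Olfm2, named after its values were seen, with 1 count in both long 2i libraries together and 30 in first 2i.

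Thy1, a cell surface glycoprotein of neurons, T cells and fibroblasts, had 23.2 and 21.4 CPM in serum return and 14.6 and 12.5 CPM in serum, 1.62-fold higher in serum return (log2 0.70 ± 0.12 SE, edgeR adjusted p = 0.000196). Thy1 and Prrx2 are also markers of fibroblasts, and the other 14 genes of that list summed to 1463 to 2709 CPM in 2i libraries and 1887 to 2083 CPM in serum libraries. Col1a2, Col3a1, Lum, Postn, S100a4 and Prrx1 stood under 1 CPM in every library. The summed fibroblast markers thus overlapped between the media. Ccdc3 had 2.62 and 2.98 CPM in long 2i and 1.6 and 1.37 CPM in first 2i, and was 1.88-fold higher in long 2i (edgeR adjusted p = 0.000625). Spn had a summed count of 4 to 5 in each 2i phase and 7 to 8.03 CPM in serum libraries.

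The neuronal and vesicle group had 10 members, among them Gap43, Elavl3, Cntn2, Syt7, Pacsin1, Dnm1, Prph, Nxph4 and Fbxo2. In second 2i 8 were higher than in first 2i and none was lower, where 18.1% and 19.6% of all genes were called. Without replicate 1 of first 2i or of second 2i, or with only these groups in the fit, 5 were called higher, and without replicate 2 of second 2i 4 were. In serum return 3 were higher and 3 lower than in serum, with 1 called lower in DESeq2 and without replicate 1 of serum or of serum return.

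Pacsin1, which binds dynamin in endocytosis at synapses, had 14.7 and 16.1 CPM in serum, 0.47 and 0.539 in first 2i, 0.178 and 0.213 in long 2i, 17.6 and 19.2 in serum return, with 1.25 and 1.31 in second 2i. Second 2i was highest of the 2i phases, 2.55-fold above first 2i (edgeR adjusted p = 0.00245) and 6.42-fold above long 2i (edgeR adjusted p = 1.48e-05), and long 2i lowest. Cntn2, an adhesion molecule of axons, was higher in each later 2i phase, with 1.79 and 1.62 CPM in first 2i, 2.56 and 2.88 in long 2i and 4.02 and 3.73 in second 2i. The difference between second and first 2i was 2.29-fold (log2 1.20 ± 0.18 SE, edgeR adjusted p = 2.9e-05) and that between long and first 2i 1.59-fold (edgeR adjusted p = 0.00548, or 0.0711 without replicate 2 of long 2i). In second against long 2i it was 1.44-fold (edgeR adjusted p = 0.0124), which was lost without replicate 1 of long 2i (edgeR adjusted p = 0.0798) or of second 2i (edgeR adjusted p = 0.0762). Prph, the intermediate filament peripherin, had 0.892 and 1.17 CPM in long 2i and 0.423 and 0.637 CPM in first 2i, and its call (edgeR adjusted p = 0.0317) was lost without replicate 1 of first 2i (edgeR adjusted p = 0.202) or replicate 2 of long 2i (edgeR adjusted p = 0.208), and in DESeq2 (adjusted p = 0.0565).

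Between the serum phases the neuronal members moved in both directions, where 16.5% of all genes were called higher and 14.5% lower. The call of Prph, 1.29-fold higher in serum return (edgeR adjusted p = 0.0407), was lost in DESeq2 (adjusted p = 0.243). That call was also lost when any 1 library of serum or serum return was left out (log2 0.29 to 0.44). Nxph4, a secreted ligand of neurexins, had 15 and 17.1 CPM in serum return and 7.8 and 9.06 CPM in serum, 1.88-fold higher in serum return (log2 0.91 ± 0.13 SE, edgeR adjusted p = 4.42e-05). Elavl3, an RNA-binding protein of neurons, had 30.2 and 33 CPM in serum return and 40.4 and 43.7 CPM in serum, 1.35-fold lower in serum return (edgeR adjusted p = 0.00167). Gap43, a protein of growing axons, had 7.53 and 7.5 CPM in serum return and 11.2 and 9.78 CPM in serum. The groups did not overlap, and the 1.41-fold lower level passed (edgeR adjusted p = 0.0157) but was lost when replicate 1 of serum or either library of serum return was left out (edgeR adjusted p = 0.0748 to 0.145) and in DESeq2 (adjusted p = 0.165). The 10 listed neuroectoderm genes, none of them a member, summed to 74.2 to 328 CPM in 2i libraries and 83.2 to 94.8 CPM in serum libraries. Their highest sums, 327 and 328 CPM, were those of long 2i, and 3 of the 10, with Neurog2 and Hes5 among them, stood under 1 CPM in every library. Their part in the levels of the neuronal members was not tested.

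**Figure D5:**
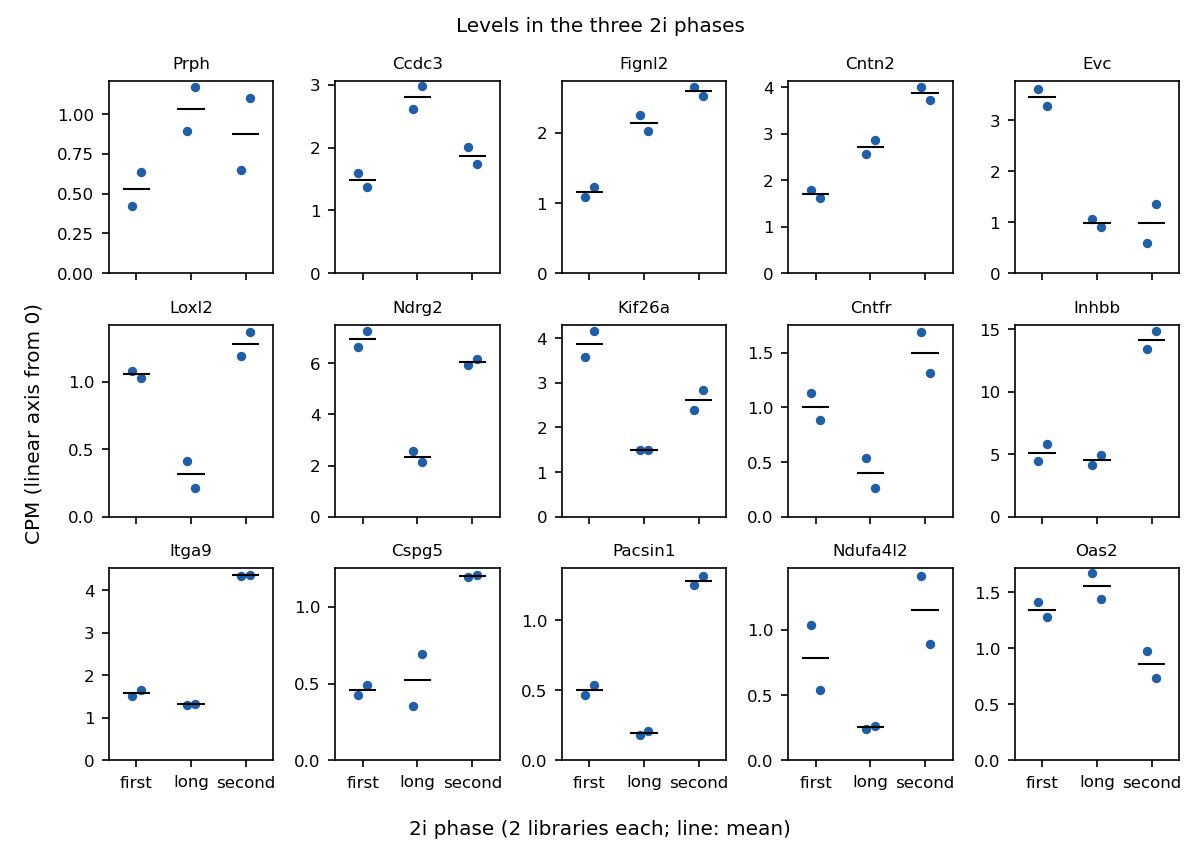
Level (CPM, linear axes from 0) of members named for the 2i comparisons in first, long and second 2i, with 1 point per library and a line at the mean of 2. Evc and Kif26a are highest in first 2i, Ccdc3 is highest in long 2i, and Inhbb, Itga9 and Pacsin1 are highest in second 2i.

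The group of hypoxia, metabolism and steroid synthesis had 4 members. Of these, 3 were higher in serum return than in serum, 3 lower in long than in first 2i and 3 higher in second than in long 2i. The shares of all genes called in these directions were 16.5%, 30.8% and 28.1%. In second against first 2i none of the 4 was called, where 18.1% of all genes were called higher and 19.6% lower. Egln3, a prolyl hydroxylase that marks hypoxia-inducible factor for decay and is itself a target of that factor, had 59.5 and 60.6 CPM in serum, 2.82 and 2.84 in first 2i, 1.13 and 1.44 in long 2i, 78.1 and 76.7 in serum return, with 2.01 and 2.63 in second 2i. The serum phases did not overlap, and long 2i was lowest. Serum return was 1.27-fold above serum (log2 0.35 ± 0.07 SE, edgeR adjusted p = 0.00134), and long 2i 2.19-fold below first 2i (edgeR adjusted p = 8.17e-05). The 1.81-fold higher level in second than in long 2i (edgeR adjusted p = 0.00238) was lost without replicate 2 of second 2i (edgeR adjusted p = 0.0827). Ndufa4l2, a mitochondrial protein induced in hypoxia, had 17.6 and 16.4 CPM in serum, 1.03 and 0.539 in first 2i, 0.238 and 0.266 in long 2i, 24.3 and 25.5 in serum return, with 1.41 and 0.894 in second 2i. It was 1.45-fold higher in serum return than in serum (edgeR adjusted p = 0.00147) and 4.51-fold higher in second than in long 2i (edgeR adjusted p = 0.000382). It was 3.09-fold lower in long than in first 2i (edgeR adjusted p = 0.00656, or 0.142 without replicate 1 of first 2i).

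Ndrg2, a cytoplasmic protein of the NDRG family, had 71.2 and 69.3 CPM in serum, 6.63 and 7.26 in first 2i, 2.56 and 2.13 in long 2i, 78.3 and 75.3 in serum return, with 5.92 and 6.15 in second 2i. Long 2i was 2.97-fold below first 2i (log2 -1.57 ± 0.15 SE, edgeR adjusted p = 1.27e-08), and second 2i was 2.61-fold above long 2i (edgeR adjusted p = 1.77e-07). Cyp11a1, which cuts the side chain of cholesterol in steroid synthesis, had 16 and 15.8 CPM in serum return and 9.12 and 8.29 CPM in serum, 1.8-fold higher in serum return (edgeR adjusted p = 0.000733). It had 7 to 8 counts in each 2i phase. Of the 27 listed genes of glycolysis and hypoxia, which include Egln3, 8 were higher and 7 lower in serum return than in serum. In long against first 2i 7 were higher and 17 lower, and in second against long 2i 17 were higher and 6 lower. In second against first 2i 13 were higher and 7 lower. Shares of all genes called higher and lower were 16.5% and 14.5% in serum return against serum. They were 30.4% and 30.8% in long against first 2i, 28.1% and 28.4% in second against long 2i, and 18.1% and 19.6% in second against first 2i. The list as a whole thus had more genes called lower than higher in long against first 2i. It had more called higher than lower in second 2i against either earlier phase, and no direction prevailed in serum return. The members of this group shared the rise in second 2i against long 2i only.

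The cytoskeleton and membrane group had 6 members, the actin-binding coronin Coro2a, the kinesin-like Kif26a, Dysf (dysferlin, which acts in membrane repair), Rhobtb1, Vash2 and Fignl2, a relative of microtubule-severing enzymes. In serum return 1 was higher and 3 were lower than in serum, where 16.5% and 14.5% of all genes were called. Without replicate 2 of serum or replicate 1 of serum return 1 was called lower, Dysf. Rhobtb1 had 16.5 and 17.2 CPM in serum return and 7.56 and 8.29 CPM in serum, 2.1-fold higher in serum return (log2 1.07 ± 0.15 SE, edgeR adjusted p = 3.51e-05). Dysf had 18 and 17.8 CPM in serum return and 27.8 and 30.6 CPM in serum, 1.65-fold lower in serum return (log2 -0.72 ± 0.10 SE, edgeR adjusted p = 1.48e-05). Neither gene's groups overlapped.

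Fignl2 had 76.8 and 83.9 CPM in serum, 1.08 and 1.23 in first 2i, 2.26 and 2.02 in long 2i, 61.6 and 73 in serum return, with 2.66 and 2.52 in second 2i. It was higher in both later 2i phases, 1.85-fold in long 2i (edgeR adjusted p = 0.00482) and 2.26-fold in second 2i (edgeR adjusted p = 0.000649), each against first 2i. Kif26a ran the other way, with 3.58 and 4.17 CPM in first 2i, 1.49 and 1.49 in long 2i and 2.39 and 2.84 in second 2i. It was 2.59-fold lower in long than in first 2i (edgeR adjusted p = 6.01e-05). Its call in second against first 2i (1.46-fold lower, edgeR adjusted p = 0.0467) was lost in 6 fits without 1 library each (edgeR adjusted p = 0.0598 to 0.239), and that in second against long 2i (1.77-fold higher, edgeR adjusted p = 0.0127) in 3 (edgeR adjusted p = 0.053 to 0.102).

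The remaining 6 members were Phlda2, an imprinted gene that restrains placental growth, Oas2, an interferon-induced antiviral enzyme, and Gfod1, Soga3, AU015836 and E130309D14Rik, for which no role is given. AU015836 had 54.3 and 50.6 CPM in serum, 0.141 and 0.147 in first 2i, 0.476 and 0.16 in long 2i, 21.6 and 20.4 in serum return, with 0.217 and 0.368 in second 2i. It came back to less than its original level, 2.53-fold lower in serum return than in serum (log2 -1.34 ± 0.10 SE, edgeR adjusted p = 4.78e-09), and no other member was lower by more than 2-fold. Oas2 had 0.978 and 0.736 CPM in second 2i and 1.67 and 1.44 CPM in long 2i, 1.78-fold lower in second 2i (edgeR adjusted p = 0.0177). That call was lost without replicate 1 of long 2i (edgeR adjusted p = 0.105) or replicate 2 of second 2i (edgeR adjusted p = 0.153), and with only the groups compared in the fit (edgeR adjusted p = 0.0527). Phlda2 had 14.3 and 13.5 CPM in serum return and 12.3 and 12.2 CPM in serum, and did not pass in any of the 4 comparisons. Without replicate 2 of long 2i, which leaves that phase with no count of Phlda2, it passed against first 2i (edgeR adjusted p = 0.000734) and second 2i (edgeR adjusted p = 0.0151).

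None of the 24 listed targets of the ERK pathway was a member, and 1, Spry4, was among the genes set aside by symbol. Of the 22 targets tested, 17 were higher and 2 lower in long than in first 2i, and 14 were higher and 1 lower in second than in first 2i. In second against long 2i 5 were higher and 11 lower, and in serum return against serum 2 were higher and 7 lower. Shares of all genes called higher and lower were 30.4% and 30.8% in long against first 2i, and 18.1% and 19.6% in second against first. They were 28.1% and 28.4% in second against long 2i, and 16.5% and 14.5% in serum return against serum. In long against first 2i the 54 members had 7 called higher and 14 lower (13% and 25.9%). The difference between the members and these targets was not tested.

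Promoter sequence is a feature that the rule did not use. RefSeq promoters of GRCm38.p6, running 250 bases before to 50 after a start, were found for 33 of the 54 members. The ratio of observed to expected CpG, taken at the start with the highest ratio, had a median of 0.733 over the 33 members and 0.777 over the 10556 tested genes with a promoter. It was over 0.6 in 21 of the 33 members (63.6%) and in 73.7% of tested genes. The members thus held both CpG-rich and CpG-poor starts. Those of Inhbb, the member with the highest CPM in serum, and of Spn, with few CpG, are shown as the contrast, with each CpG in capitals. They lie at chr1:119422199-119422498 on the minus strand, with 23 CpG and a ratio of 0.741, and at chr7:127137774-127138073 on the minus strand, with 3 CpG and a ratio of 0.124.
Inhbb: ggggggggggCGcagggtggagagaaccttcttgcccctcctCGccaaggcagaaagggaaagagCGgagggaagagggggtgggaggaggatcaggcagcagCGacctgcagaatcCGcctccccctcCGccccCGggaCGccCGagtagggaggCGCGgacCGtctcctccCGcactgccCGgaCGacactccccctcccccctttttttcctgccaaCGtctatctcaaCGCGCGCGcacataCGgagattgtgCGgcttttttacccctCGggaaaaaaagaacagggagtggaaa
Spn: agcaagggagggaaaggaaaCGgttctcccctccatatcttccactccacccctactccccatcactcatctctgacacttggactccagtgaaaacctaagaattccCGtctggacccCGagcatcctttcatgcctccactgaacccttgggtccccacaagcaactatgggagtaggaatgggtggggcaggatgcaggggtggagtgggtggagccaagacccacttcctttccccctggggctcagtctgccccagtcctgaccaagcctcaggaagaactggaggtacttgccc

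Motifs were searched as letters on both strands, and a match is a description, not a site. A binding motif of ETS factors, which include targets and effectors of ERK signalling, was taken as CCGGAAG. It occurred in 2 of the 33 members with a promoter (6.06%) and in 18.8% of tested genes. The AP-1 motif TGANTCA occurred in 2 members (6.06%) and in 5.95% of tested genes. The TCF/LEF motif CTTTGAT occurred in none, against 2.98% of tested genes, the E-box CACGTG in 1 (3.03%), Rhobtb1, against 11.8%, and the CArG box of SRF in none, against 1.5%. The promoters with an ETS or AP-1 match are shown because these families stand downstream of the kinase pathway that 2i inhibits, with the matched letters in capitals. They are Itga9 at chr9:118711442-118711741 on the plus strand, with AP-1, Fbxo2 at chr4:148160418-148160717 on the plus strand, with ETS, and Vash2 at chr1:190978949-190979248 on the minus strand, with AP-1 and ETS, which do not overlap.
Itga9: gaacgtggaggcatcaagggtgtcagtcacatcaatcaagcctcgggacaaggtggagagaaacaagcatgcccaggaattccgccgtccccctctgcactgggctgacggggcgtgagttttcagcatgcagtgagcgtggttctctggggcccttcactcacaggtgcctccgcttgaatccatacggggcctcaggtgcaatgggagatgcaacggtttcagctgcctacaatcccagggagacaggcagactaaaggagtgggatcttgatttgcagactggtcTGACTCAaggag
Fbxo2: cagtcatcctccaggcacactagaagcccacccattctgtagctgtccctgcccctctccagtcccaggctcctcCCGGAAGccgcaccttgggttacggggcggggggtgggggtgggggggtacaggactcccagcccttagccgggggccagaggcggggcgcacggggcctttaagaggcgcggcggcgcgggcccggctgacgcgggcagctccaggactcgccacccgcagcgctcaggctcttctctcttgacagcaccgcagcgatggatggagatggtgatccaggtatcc
Vash2: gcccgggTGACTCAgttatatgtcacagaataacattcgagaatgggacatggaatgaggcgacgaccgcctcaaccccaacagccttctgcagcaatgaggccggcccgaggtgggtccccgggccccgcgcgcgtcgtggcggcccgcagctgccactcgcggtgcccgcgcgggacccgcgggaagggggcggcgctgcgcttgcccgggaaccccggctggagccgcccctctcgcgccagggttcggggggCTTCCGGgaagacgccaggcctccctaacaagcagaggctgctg

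These 3 members had no common course. Itga9 was 2.77-fold higher in second than in first 2i, Fbxo2 1.54-fold higher (edgeR adjusted p = 0.00451), and Vash2 did not pass (edgeR adjusted p = 0.45, or 0.0341 without replicate 2 of first 2i). The Fbxo2 call was lost without replicate 1 of first 2i (edgeR adjusted p = 0.0782) or replicate 2 of second 2i (edgeR adjusted p = 0.0894). Fbxo2 had 7.12 and 8.83 CPM in second 2i and 4.52 and 5.93 CPM in first 2i.

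In 11 members the level in second 2i was called higher than in both earlier 2i phases, among them Cntn2, Cspg5, Dnm1, Elavl3, Inhbb, Itga9, Myrf, Pacsin1, Prrx2 and Zbtb7c. Without replicate 1 of long 2i 7 members were called so, and without replicate 1 of second 2i 8. Dnm1, whose call against first 2i was lost in DESeq2 (adjusted p = 0.0892) and without 3 libraries in turn (edgeR adjusted p = 0.0776 to 0.206), is the neuronal dynamin of endocytosis, and Zbtb7c a zinc finger factor with a BTB domain. Zbtb7c, named after its values were seen, had 2.3 and 3.24 CPM in first 2i, 1.31 and 1.7 in long 2i and 4.56 and 4.84 in second 2i. The 3 phases did not overlap, and second 2i was 1.72-fold above first 2i (edgeR adjusted p = 0.00149) and 3.12-fold above long 2i (edgeR adjusted p = 9.34e-07). The pair of contrasts shares the second 2i libraries, so the 2 calls of a member are not independent. Of all tested genes, 18.1% were called higher than in first 2i and 28.1% higher than in long 2i. The share with both calls was not counted, so the 11 members cannot be set against it. In serum return against serum, 3 of these 11 were called higher (Cspg5 and Inhbb among them), 3 lower (Elavl3, Itga9 and Myrf) and 5 did not pass. Their course in serum was thus not shared, and of all genes 16.5% were called higher and 14.5% lower there.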

How the data were processed

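Total RNA of 10 libraries in 5 groups of 2 was sequenced, with groups taken from the culture media in the labels. The files as deposited by the authors hold raw counts of reads for 24015 genes, whole numbers with no normalization. The submitters' processing notes name TopHat2 2.0.4, CASAVA 1.8.2, DESeq2 (no version) and HTSeq 0.5.4p5, and build mm9. Annotation, read layout and strand setting: not given in the sources used here. Overlapping and antisense genes are therefore uncertain. Records aligned to more than 1 place (33.4 to 36.5% of records) were not counted, which lowers the counts of genes that have near-identical copies. The 5 summary categories were left out, and gene counts made up 51.2 to 54.8% of records.

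The members were found with the plain CPM rule, and they and all gene lists and role groups were chosen with earlier results of these data known. Counts of all 10 libraries were fitted in R 4.3.3 with edgeR 4.0.16 (filterByExpr by group with a minimum count of 10 and a minimum total of 15, TMM factors of 0.988 to 1.01, robust quasi-likelihood, 5 residual degrees of freedom, common biological coefficient of variation 0.0491). Tests were two-sided, with Benjamini-Hochberg adjustment over 14220 genes and a threshold of 0.05. Tested were serum return against serum, long against first 2i, and second against first and long 2i. Folds and log2 fold changes come from the fit, levels from plain CPM. The fit was also run on simulated data with the same spread for every gene. That run does not test the calls of members with few counts in 2i or a large spread. Alternatives were RLE size factors, no filter, the DESeq2 1.42.0 Wald test, a block for the title series, only the groups compared, each library left out, and other thresholds of the rule.

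Members were named by a rule: the 10 with the highest serum mean, the 10 with the largest ratio, the 5 nearest each threshold on either side, in each comparison the 5 largest folds among those called in each direction at a mean of at least 1 CPM, and members in a list. Genes outside it, and members given only with a role, were named after their values were seen. Promoter sequences are from RefSeq, and no coordinates were read from the mm9 files. Values of 1 member, which counts over the members include, are not reported here.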

Additional observations from a re-analysis of the deposited data

How the results depend on the processing

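Of the single-gene results recomputed under each alternative, 3011 kept their side of the threshold, 126 fell short of it and 50 newly passed it, and no called change reversed. Calls held in every fit that tested the gene for 13 of 22 members in serum return against serum, 9 of 21 in long against first 2i, 10 of 19 in second against first 2i and 12 of 26 in second against long 2i. The rule took 141 genes at 4 times the highest 2i library and 20 at 16 times. It took 74 genes with a minimum of 2 CPM, 40 with 10 CPM and 54 to 59 with 1 library left out. With 1 library left out, 8 to 11 members were higher and 6 to 13 lower in serum return, 4 to 8 higher and 10 to 14 lower in long against first 2i, 11 to 17 higher and 1 to 2 lower in second against first 2i, and 16 to 22 higher and 2 to 4 lower in second against long 2i. The DESeq2 Wald test called 7 members lower in serum return, 4 higher in long against first 2i and 2 lower in second against long 2i. The fit of only the groups compared called 3 higher in long against first 2i and 0 lower in second against long 2i, and it tested 33, 40 and 36 of the 54 members in the 3 comparisons of 2i phases. With the title series as a replicate block, 17 members were lower in serum return, Tcf15 among them (edgeR adjusted p = 4.16e-11). Same-series libraries deviated together only weakly (correlations of 0.0994 to 0.168 over the 10 pairs of groups, 1 of them not above 0.1), so the numbers were not taken to pair the samples. The cause of these shifts was not tested. Depth limits the members in 2i, where many rest on under 10 counts a library.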

Other observations

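Some members lie close to each other in the order of RefSeq genes of GRCm38.p6, with at least 1 gene between them. How often other genes lie so close was not counted. Ndufa4l2 and Nxph4 have 1 listed gene between them, Shmt2, an enzyme of one-carbon metabolism with 209.5 to 328 CPM in 2i libraries and 345 to 491 CPM in serum libraries. Myrf and Syt7 are separated by Dagla, a lipase that makes an endocannabinoid, which had 0.535 to 0.894 CPM in 2i libraries and 3.15 to 4.48 CPM in serum libraries. Fignl2 and Acvrl1 are separated by Ankrd33, listed at 0 in every library. Klk13 and Klk8 lie in the kallikrein cluster with 5 genes between them. Of these, Klk10 had 1.32 to 12.8 CPM in 2i libraries and 8.39 to 17.2 CPM in serum libraries, and the media overlapped. Klk11 had 1.69 to 5.77 CPM in 2i libraries and 9.4 to 14 CPM in serum libraries. Klk9, Klk12 and 2310002F09Rik had at most 0.52 CPM in any library.

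Among the 24 genes that met the rule with serum return only, Ankrd44 had 13.6 and 11.9 CPM in serum return and 3.97 and 4.22 CPM in serum, 3.08-fold higher in serum return (edgeR adjusted p = 2.82e-07). Bnip3, a mitophagy protein induced in hypoxia, had 31.4 and 29.8 CPM in serum return and 20.8 and 17.2 CPM in serum, 1.59-fold higher in serum return (edgeR adjusted p = 5.19e-05). Both were named after their values were seen, and the choice by serum return favours such a direction.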
